A study of Mus musculus with 2 samples.

Results

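The genes described here encode chromatin remodellers and the enzymes that write or erase marks on histones and DNA, in epithelium cultured from fetal mouse lung. They were chosen by the symbol in the array's annotation. The rule took the Hdac, Sirt, Kat, Kdm, Kmt2, Kmt5, numbered Setd, Cbx, Smarc, Chd, Arid, Dnmt3 and Tet families together with Ezh1, Ezh2, Eed and Suz12, and left out Kdm5c, Kdm5d and Kdm6a. It found 255 probe sets that name 1 gene each, for 105 of the 18193 genes read on the arrays. Of the 105 genes, 34 had a single probe set and the others up to 7. Unless another is named, the values of a gene are those of the probe set whose log2 signal, averaged over the arrays, was highest.

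The epithelium came from lungs of ICR mice at embryonic day 11 and was kept in Matrigel, a basement membrane gel, in medium with FGF10, which the mesenchyme normally supplies to growing lung buds. For the first 4 days all of it also received CHIR99021, a small molecule that blocks glycogen synthase kinase 3 and so lets beta-catenin build up and act on Wnt target genes. The pieces were then embedded again for 2 days, either with CHIR99021 in the medium (CHIR+) or without it (CHIR-). The comparison is thus between continued exposure and withdrawal, and no culture that never saw the inhibitor was analysed here. There was 1 Affymetrix array per condition, so values have no spread between cultures, no test was possible, and every ratio compares these 2 arrays. In such bulk RNA, fewer cells of a type and less RNA per cell cannot be told apart.

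DNA in the nucleus is wound on histones, and the access of transcription factors depends on how tightly. Acetyltransferases and deacetylases add and remove acetyl groups on histone tails, and SET-domain methyltransferases and demethylases do the same with methyl groups. Remodellers of the SWI/SNF, ISWI and CHD types use ATP to slide or evict nucleosomes, and Dnmt3 and Tet enzymes set and oxidise DNA methylation. In the developing lung epithelium, Polycomb repressive complex 2 and class I deacetylases are known from mouse knockouts to be needed for airway lineages to form normally.

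The signals are MAS5 signals, the linear brightness that Affymetrix software gives a probe set after subtracting mismatch probes. A background floor was set on each array at the 95th percentile of 80 probe sets for olfactory and vomeronasal receptors, which was 12.7 on the CHIR+ array and 19.2 on the CHIR- array. Signals under the floor were raised to it, and a gene counted as measured when above it on at least 1 array. The arrays differed as a whole. The median log2 ratio of CHIR+ over CHIR- across 12917 measured genes was -0.42 on the authors' scale. The loess curve of the ratio against signal lay at -0.59 for a signal of 30 and at -0.16 for one of 3000. The 3' to 5' signal ratio of beta-actin was 3.18 with and 1.29 without CHIR99021, and that of Gapdh was 1.62 with and 0.737 without. These ratios move with every comparison below, and their part in it was not tested. Log2 ratios are therefore given on the authors' scale and, where marked, after loess, which removes the shift that depends on signal. Of 9 epithelial markers, 8 were above the floor with and 9 without CHIR99021, their summed signal being 24836 with and 36579 without. The lung determinant Nkx2-1 was the exception, at 5.84 with, under the floor, and 52.0 without. Krt8 (3151 with and 7715 without), Krt18 (2834 with and 6738 without) and Cdh1 (3574 with and 6414 without) were lower with CHIR99021. Epcam (3743 with and 3846 without) and Sftpc (8500 with and 8808 without) were close. Sox9, at 771 with and 70.1 without, was higher. Of the 9, 7 had a log2 ratio below 0 on the authors' scale, beside 77.4% of all genes. The summed signals of the marker lists of mesenchyme (462 with and 525 without), endothelium (65.9 with and 104 without), blood (65.7 with and 115 without) and neural cells (22.5 with and 33.9 without) were small. Of 12 mesenchymal markers, 6 were above the floor with and 5 without CHIR99021. On each array 2 of 6 endothelial, 2 of 4 blood and 1 of 3 neural markers were above it. Pecam1, Ptprc and Twist1, markers of endothelium, blood and mesenchyme, were below the floor on both arrays. Col1a1 (35.8 with and 24.7 without) and Col3a1 (54.6 with and 88.7 without), also of mesenchyme, were above it on both. Of 3 mesothelial markers, Msln alone was above the floor and on the CHIR- array only, its signal being 4.84 with and 471 without CHIR99021, and the part of such cells in the results was not tested. Axin2, a beta-catenin target, had a signal of 267 with and 58.2 without CHIR99021.

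As a group the chromatin genes followed all genes, and most of either were within 2-fold between the arrays. On the authors' scale 102 of the 105 were measured, and Chd5, Hdac9 and Kdm4d were above the floor on neither array. Cbx2 alone was at least 2-fold higher with CHIR99021, 1 gene of 102 (0.98%), against 1.9% of all measured genes. At least 2-fold lower were 17 of the 102 (16.7%), against 18.4% of all measured genes. The median log2 ratio of the 102 was -0.33, against -0.42 over all genes. Of the 102, 84 had a log2 ratio below 0 (82.4%, against 77.4% of all measured genes). After loess 4 were at least 2-fold higher (3.92%, against 6.03% of all genes) and 6 lower (5.88%, against 7.29%). The median of the 102 changed sign with that scaling, to 0.03 beside 0.04 for all genes. A log2 ratio below 0 was then found for 46 of them (45.1%, against 46.8% of all genes). The shares past 2-fold were thus at or under those of all genes on both scales. A log2 difference under 0.5 on the authors' scale was found for 53 of the 102 (52.0%), against 49.1% of all measured genes.

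**Figure D1:**
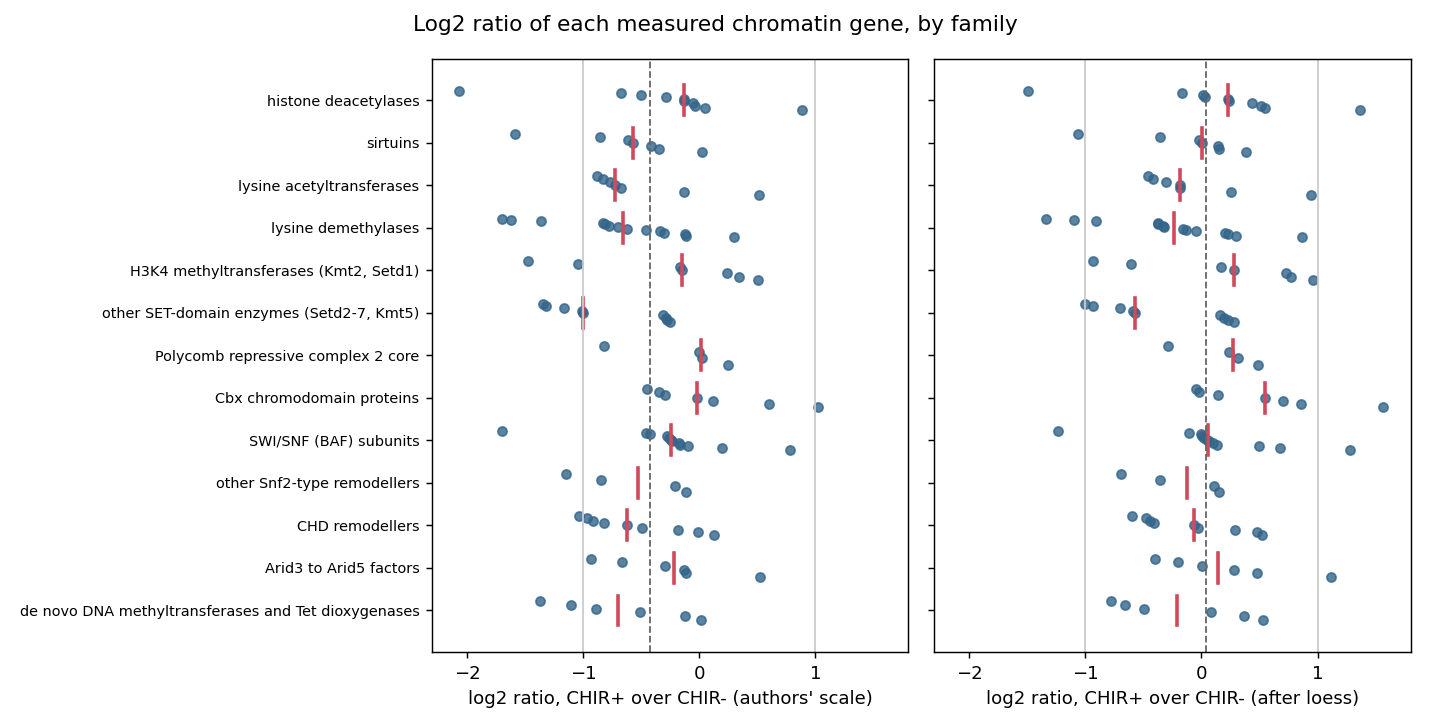
Log2 ratio of CHIR+ over CHIR- for each of the 102 measured chromatin genes (points), by family, on the authors' scale (left) and after loess (right). Red bars are family medians, the dashed line is the median of all measured genes (-0.42 and 0.04), and grey lines mark 2-fold, with 17 points beyond it on the lower side and 1 on the higher on the left (Arid5a and Dnmt3l are drawn with the CHIR- array at its floor).

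**Figure D2:**
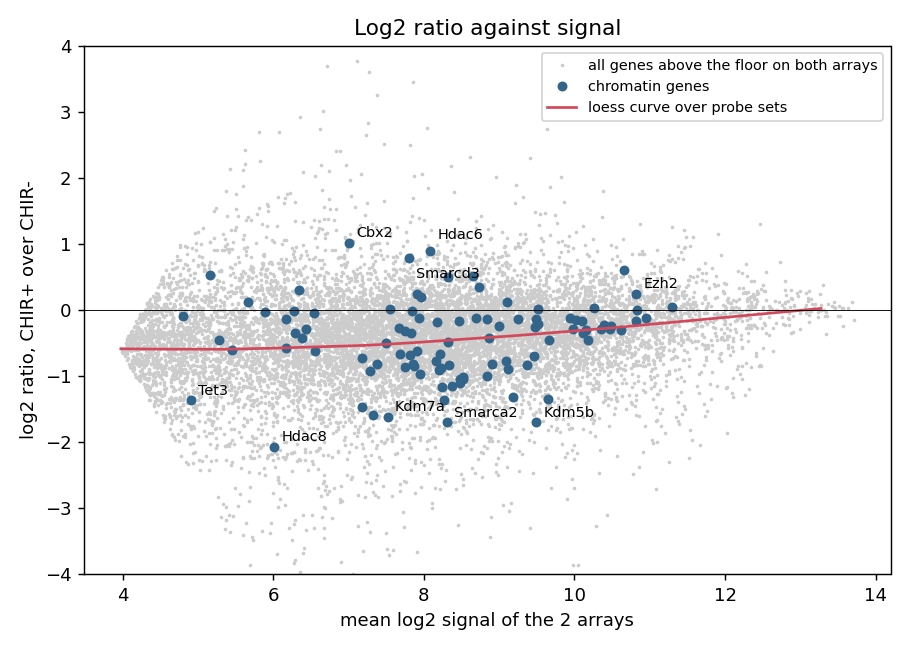
Log2 ratio of CHIR+ over CHIR- against mean log2 signal, for all genes that cleared both floors (grey) and the 100 chromatin genes among them (blue), with the loess curve in red. Genes beyond a log2 ratio of 4 in either direction are not drawn; the curve lies below 0 at low signal, and the chromatin genes scatter on both sides of it.

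Genes that stood farthest from the rest were few. Hdac8, Kdm5b, Kdm7a and Smarca2 were at least 2-fold lower on the authors' scale and also after loess, median centring, quantile normalization and scaling on hybridization controls. Cbx2 was at least 2-fold higher on all of these scales. The counts themselves moved with the scaling. Median centring left 5 higher (against 5.91% of all genes) and 5 lower (against 7.44% of all genes). Quantile normalization left 5 higher (against 7.38% of all genes) and 4 lower (against 6.43% of all genes). Scaling on hybridization controls left 2 higher (against 2.74% of all genes) and 10 lower (against 13.7% of all genes). Of the 17 lower genes, 6 rested on 1 probe set that cleared the floor on each array. Of the other 11, which had more, Chd2, Kdm7a, Kmt5a and Sirt5 were the 4 with all of them past 2-fold. Of the 17, 6 were also past 2-fold after loess, the 4 named first with Kmt5a and Sirt5.

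**Figure D3:**
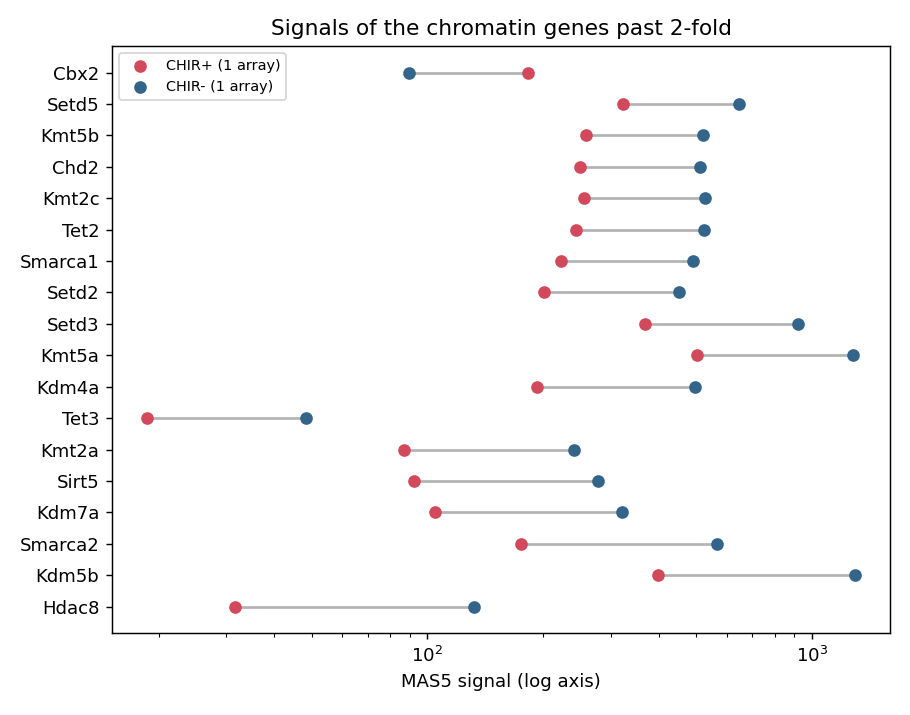
MAS5 signals (log axis) of the 18 chromatin genes past 2-fold on the authors' scale, with CHIR99021 (red) and without it (blue), 1 array each. Cbx2 had 182 with and 89.8 without CHIR99021, and the other 17 genes had the lower signal with it, ending with Hdac8 at 31.6 with and 132 without.

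**Figure D4:**
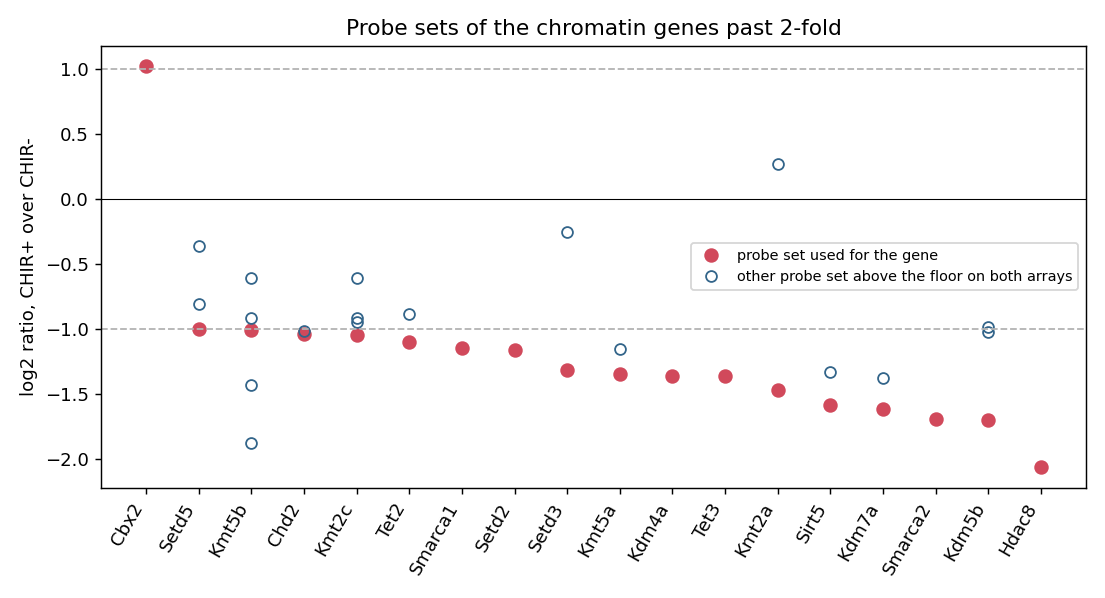
Log2 ratio of CHIR+ over CHIR- for each probe set of the same 18 genes that cleared the floor on each array, with the probe set used for the gene in red and the others open. Dashed lines mark 2-fold; the second probe set of Kmt2a lies at 0.27, on the other side of 0 from the first at -1.47.

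Promoters are shown for Smarca2 and Kdm5b, which were past 2-fold lower on every scale. That of Kmt2d is shown for its letters, as the one chromatin window with a TCF/LEF motif, bound by the partners of beta-catenin; Kmt2d was within 2-fold on every scale. The sequences are the 250 bases before the annotated start, 5' to 3' on the gene's strand, from RefSeq on GRCm38.p6. Capitals mark a searched motif, and Smarca2 and Kdm5b have none.
Smarca2, chr19:26604910-26605159, plus strand: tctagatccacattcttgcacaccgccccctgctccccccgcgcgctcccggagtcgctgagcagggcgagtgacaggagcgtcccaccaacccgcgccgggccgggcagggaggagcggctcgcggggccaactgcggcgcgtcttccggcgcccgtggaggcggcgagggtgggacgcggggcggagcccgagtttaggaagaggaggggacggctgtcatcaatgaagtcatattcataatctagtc
Kdm5b, chr1:134559928-134560177, plus strand: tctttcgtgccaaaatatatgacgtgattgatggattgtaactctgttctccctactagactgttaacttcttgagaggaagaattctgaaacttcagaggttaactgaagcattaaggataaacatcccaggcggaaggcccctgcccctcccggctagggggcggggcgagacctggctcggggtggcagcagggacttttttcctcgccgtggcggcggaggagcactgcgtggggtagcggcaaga
Kmt2d, chr15:98871206-98871455, minus strand: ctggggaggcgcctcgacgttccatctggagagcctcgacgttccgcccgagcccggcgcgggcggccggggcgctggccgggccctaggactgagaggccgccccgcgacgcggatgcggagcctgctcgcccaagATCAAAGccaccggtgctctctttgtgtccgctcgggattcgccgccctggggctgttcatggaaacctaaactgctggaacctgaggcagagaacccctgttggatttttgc
The motif CTTTGAT was searched on both strands of windows of 300 bases, 250 before and 50 after the start. It was in 1 of 116 windows of 84 chromatin genes (0.862%) and in 3.73% of all 32851 windows, and none of the 20 windows of 16 lower genes held it. In Kmt2d it lies on the opposite strand and begins 113 bases before the start. The E2F letters GGCGGGAA were in 2.59% of the chromatin windows, those of Arid1a, Kmt5c and Sirt6, and in 2.19% of all. The E-box CACGTG, bound by Myc among others, was in 7.76% of the chromatin windows and 7.15% of all. The chromatin windows held a median of 23.5 CG pairs, against 7 over all windows, with 29 in Smarca2, 17 in Kdm5b and 27 in Kmt2d. Such matches describe letters only.

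Histone deacetylases, which remove acetyl groups and mostly act in corepressor complexes, held both the lowest ratio of all members and one of the highest. Hdac8, a class I enzyme that also deacetylates cohesin, had a signal of 31.6 with and 132 without CHIR99021, 4.19-fold lower (log2 -2.07, and -1.49 after loess), by its single probe set. Hdac6, a largely cytoplasmic deacetylase of tubulin, was on the other side, at 370.3 with and 199.98 without CHIR99021, a log2 ratio of 0.89 on the authors' scale and 1.36 after loess. The core class I enzymes were close on the arrays. Hdac1 had 918 with and 1118 without CHIR99021, Hdac2 had 2546 with and 2462 without, and Hdac3 had 688 with and 755 without. Further probe sets of Hdac2 lay at log2 ratios of -0.32 and -0.81. Of the class II enzymes Hdac7 was the lowest, at 163 with and 259 without CHIR99021, and Hdac4, Hdac5 and Hdac10 had log2 ratios between -0.50 and -0.04, as did Hdac11 (-0.14, and 0.59 by another probe set), the class IV enzyme. In all, 1 of 10 measured deacetylases was past 2-fold lower and none higher on the authors' scale, beside 18.4% and 1.9% of all genes, and Hdac6 was past 2-fold higher on the other 4 scales.

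Sirtuins, the NAD-dependent deacylases, had 1 of 7 members past 2-fold lower, beside 18.4% of all genes. Sirt5, which removes succinyl groups in mitochondria, had 92.2 with and 277 without CHIR99021, 3.01-fold lower, and its second probe set had 78.4 with and 198 without. Its log2 ratio was -1.06 after loess but -0.99 after quantile normalization. Sirt1, the nuclear enzyme, had 736 with and 726 without CHIR99021. Sirt2, Sirt3, Sirt4, Sirt6 and Sirt7 lay between log2 ratios of -0.86 and -0.34.

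Acetyltransferases had no member past 2-fold among 7, beside 18.4% of all genes lower and 1.9% higher. The GCN5-type pair lay apart: Kat2b, known as PCAF, had 497 with and 885 without CHIR99021, while Kat2a, known as GCN5, had 479.5 with and 335 without. The probe set used for Kat2b is of a kind that can match several transcripts, and a second one of Kat2b had 8.80 with CHIR99021, under the floor, and 54.3 without. Kat2a was divided, with further probe sets at log2 ratios of -0.49 and 0.60. In the MYST group, Kat5 (Tip60), Kat6a, Kat6b and Kat8 (MOF, which acetylates histone H4) had log2 ratios between -0.88 and -0.68 by the probe sets used. The second probe set of Kat5 was past 2-fold lower, at -1.02. Kat7 (HBO1), which acetylates histones at replication origins, was nearer 0, at 583 with and 639 without CHIR99021, with further probe sets at -0.70 and 0.52.

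Lysine demethylases had 3 of 14 measured members past 2-fold lower and none higher on the authors' scale, beside 18.4% of all genes lower and 1.9% higher. Kdm5b, which removes trimethylation of lysine 4 of histone H3, had 399 with and 1296 without CHIR99021, 3.25-fold lower (log2 -1.70, and -1.34 after loess). Its dimmer probe sets had 63.4 with and 126 without, and 49.9 with and 102 without, log2 ratios of -0.99 and -1.03. Kdm5a, its paralog, had 554 with and 900 without CHIR99021 by the probe set used, but 97.6 with and 465 without by another and 83.2 with and 319 without by a further one. The 2 genes therefore overlap once all probe sets are counted. Kdm7a, which erases repressive dimethyl marks, had 105 with and 322 without CHIR99021, 3.07-fold lower, and 96.6 with and 251 without by its second probe set. Kdm4a, a demethylase of lysines 9 and 36 of histone H3, had 193 with and 495 without, and its log2 ratio of -1.36 was -0.90 after loess. Kdm4b, of the same group, was on the other side of 0, at a log2 ratio of 0.30 on the authors' scale and 0.87 after loess. Kdm1a (LSD1), the flavin-dependent demethylase of the CoREST complex, had 1413 with and 1749 without, and by its second probe set 247 with and 505 without. Kdm2b, which brings a Polycomb complex to CpG islands, had 948 with and 1026 without CHIR99021. Kdm6b, an eraser of lysine 27 trimethylation, had 398 with and 434 without, but further probe sets at log2 ratios of 0.02 and -1.61. The remaining 6, Kdm1b, Kdm2a, Kdm3a, Kdm3b, Kdm4c and Kdm8, lay between log2 ratios of -0.83 and -0.34 by the probe sets used, with one of Kdm2a on the other side of 0 at 0.45.

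Methyltransferases of lysine 4 of histone H3, the mark of active promoters and enhancers, were spread widely. Kmt2a (MLL1) had 86.9 with and 241 without CHIR99021, 2.77-fold lower, while its second probe set had 123.1 with and 102.4 without, so the probe sets disagree in direction. Kmt2c (MLL3), an enhancer methyltransferase, had 255 with and 527 without, 2.06-fold lower, with its other 3 probe sets between log2 ratios of -0.95 and -0.61. Its paralog Kmt2d (MLL4) had 478 with and 377 without CHIR99021. Setd1b had 381 with and 268 without, and 195 with and 232 without by its second probe set. Setd1a had 260.0 with and 221 without, but 15.3 with and 49.7 without by its second probe set. Kmt2b and Kmt2e lay at log2 ratios of -0.17 and -0.15 by the probe sets used, and the other 3 of Kmt2e between -0.85 and -0.73. In this family 2 of 7 were lower and none higher on the authors' scale, beside 18.4% of all genes lower and 1.9% higher. After loess 0 of 7 were past 2-fold, beside 7.29% lower and 6.03% higher, and Setd1b was past 2-fold higher after quantile normalization.

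Among the other SET-domain enzymes, 5 of 9 were at least 2-fold lower on the authors' scale, beside 18.4% of all genes, and the family median log2 ratio of -1.002 was the lowest of the 13 families. After loess that median was -0.57 and 1 of the 9, Kmt5a, was just past 2-fold lower, beside 7.29% of all genes. After median centring or quantile normalization 0 of the 9 were, beside 7.44% and 6.43% of all genes lower. Kmt5a (also Set8), which places the first methyl group on lysine 20 of histone H4, had 504 with and 1283 without CHIR99021 (log2 -1.35), and 178 with and 396 without by its second probe set. Kmt5b, which extends that mark, had 259 with and 522 without, and its 5 probe sets lay between log2 ratios of -1.88 and -0.61. Setd2, which trimethylates lysine 36 of histone H3, had 202 with and 452 without CHIR99021, 2.24-fold lower by its single probe set. Setd3, which methylates actin on a histidine, had 368 with and 918 without, but 111 with and 132 without by its second probe set. Setd5 was just at 2-fold, at 323 with and 648 without, with further probe sets at log2 ratios of -0.81 and -0.37. Kmt5c, Setd4, Setd6 and Setd7 lay between -0.31 and -0.25 by the probe sets used, with one of Setd4 at 0.26.

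Polycomb repressive complex 2 trimethylates lysine 27 of histone H3 and silences developmental genes. Its core subunits were nearly level between the arrays. Ezh2, the catalytic subunit of dividing cells, had 1971 with and 1660 without CHIR99021, Eed had 1235 with and 1214 without, and Suz12 had 1814 with and 1815 without. The other 5 probe sets of Suz12 lay between log2 ratios of -1.14 and -0.22. Ezh1, the alternative catalytic subunit, had 126 with and 221 without CHIR99021 (log2 -0.82, and -0.29 after loess). Relative to the loess curve Ezh2, Eed and Suz12 were above 0, at 0.48, 0.32 and 0.23. Of 21 measured proliferation genes 1, Gins2, was at least 2-fold higher and none lower, beside 1.9% and 18.4% of all genes. Their median log2 ratio was 0.26, against -0.42 over all genes, with values from -0.52 to 1.23. The part of proliferation in the levels of Ezh2 was not tested.

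Of the Cbx proteins, which read methylated histone H3 through a chromodomain, Cbx2 was the one chromatin gene past 2-fold higher on the authors' scale. This Polycomb subunit had 182 with and 89.8 without CHIR99021, a log2 ratio of 1.02, and 1.57 after loess. Its other probe set was below the floor on both arrays, and an offset of 16 added to both signals brought the ratio to 0.91. Cbx1, a heterochromatin protein 1, had 1987 with and 1309 without CHIR99021, and 1517 with and 1068 without by its second probe set, while its 3 dimmer probe sets lay between -1.23 and -0.13. Cbx5, of the same kind, had 984 with and 1252 without. Cbx3, the third of this kind, was read by 1 dim probe set, at 33.4 with and 45.5 without. The Polycomb members Cbx6, Cbx7 and Cbx8 lay between log2 ratios of -0.29 and 0.12. Among 24 measured Polycomb partners outside the families, such as Rnf2, Bmi1 and Jarid2, none was higher and 1 lower, beside 1.9% and 18.4% of all genes. The lower one, Asxl1, had 257 with and 539 without CHIR99021.

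Of 12 subunits of SWI/SNF, the BAF remodelling complex, 10 had log2 ratios within 0.5 of 0, beside 49.1% of all measured genes, and no test of that difference was made. The ATPase Smarca4 (BRG1) had 1318 with and 1564 without CHIR99021, Smarcc1 had 1695 with and 1910.4 without, Arid1a had 1040 with and 1169 without, and Arid1b had 649 with and 779 without. Smarcb1, a core subunit, had 402 with and 538 without, and another of its probe sets lay at -1.08. Arid2, Smarcc2, Smarcd1, Smarcd2 and Smarce1 lay between log2 ratios of -0.46 and 0.19 by the probe sets used, with another of Smarce1 at -0.91 and one of Arid2 at -0.64. The alternative ATPase Smarca2 (BRM) had 175 with and 568 without CHIR99021, 3.24-fold lower (log2 -1.70, and -1.24 after loess), and a dimmer probe set had 10.7 with CHIR99021, under the floor, and 46.6 without. Smarcd3 (BAF60c) was on the other side, at 293 with and 170 without, a log2 ratio of 0.78, and 1.28 after loess. Further probe sets of Smarcc1 disagreed, at 0.87 and -1.56. Outside the families, 2 of 16 measured BAF and PBAF subunits were lower and none higher, beside 18.4% and 1.9% of all genes: Brd9 had 187 with and 378 without CHIR99021, and Dpf3 had 9.59 with, under the floor, and 32.1 without.

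Of the ISWI ATPases, Smarca1 (SNF2L) had 222 with and 492 without CHIR99021, 2.21-fold lower by its single probe set and -0.69 after loess. Smarca5 (SNF2H) had 1899 with and 2055 without, though one of its other probe sets had 667 with and 1418 without, a log2 ratio of -1.09 that is close to the -1.15 of Smarca1. Smarcad1 and Smarcal1 had log2 ratios of -0.21 and -0.85. Of the CHD remodellers 1 of 9 was lower, beside 18.4% of all genes. Chd2, which acts at transcribed genes, had 249.6 with and 512 without CHIR99021, 2.05-fold lower, and its second probe set lay at -1.02. After loess it was at -0.59. Chd4, the ATPase of the NuRD corepressor, had 362 with and 638 without, with the other probe sets at -0.88 and -1.59. Chd7 had 75.7 with and 116 without CHIR99021, Chd8 had 574 with and 525 without (its other probe sets at -0.42 and -0.84), and Chd1, Chd1l, Chd3, Chd6 and Chd9 lay between -0.96 and -0.01 by the probe sets used, with another of Chd1 at -1.43. Among 22 measured remodelling genes outside the families, such as Ino80, Bptf and Atrx, none was higher and 1, Hltf, was lower, at 231 with and 476 without, beside 1.9% of all genes higher and 18.4% lower.

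The Arid3 to Arid5 factors bind DNA through their ARID domain. Arid3a had 113 with and 215 without CHIR99021, and Arid3b had 43.0 with and 29.9 without, a log2 ratio of 0.52 that was 1.12 after loess. Arid4a, Arid4b and Arid5b, by the probe sets used, lay between -0.67 and -0.13. Arid4b, a partner of the Sin3 corepressor, was divided: the probe set used was at -0.30, and the other 4 that cleared both floors were between -2.05 and -1.43. Further probe sets of Arid4a lay at -1.27 and -0.94, and one of Arid5b at -1.09. Arid5a was above the floor with CHIR99021 alone, at 17.7, and had 16.6 without it, under the higher floor of that array. With that array at its floor its log2 ratio was -0.11, which enters the counts and medians. The unequal floors alone set the sign of that ratio.

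Among the DNA methylation enzymes 2 of 6 were past 2-fold lower on the authors' scale, beside 18.4% of all genes, and none after loess, beside 7.29%. Of the de novo methyltransferases, Dnmt3a had 409 with and 758 without CHIR99021, with its 5 probe sets between log2 ratios of -0.89 and -0.25. Dnmt3b had 188 with and 186 without, and 50.4 with and 88.9 without by its dimmer probe set. Dnmt3l, their germline cofactor, was at the edge of detection, with 13.5 with and 9.21 without CHIR99021. With the CHIR- array at its floor its log2 ratio was -0.51, a sign set by the unequal floors, and this enters the counts and medians. Of the Tet dioxygenases, which oxidise methylcytosine, Tet1 had 234 with and 255 without CHIR99021, with further probe sets at log2 ratios of -0.90 and -0.49. Tet2 had 244 with and 523 without, 2.15-fold lower, and 184 with and 341 without by its second probe set. Tet3 had 18.7 with and 48.2 without, 2.58-fold lower by a single dim probe set. After loess Tet2 and Tet3 were at -0.66 and -0.78. In the list of maintenance and removal genes outside the families, 1 of 9 was higher and 1 lower, beside 1.9% and 18.4% of all genes. Uhrf1, which guides maintenance methylation, had 2159.9 with and 809.5 without CHIR99021, and Gadd45b, a stress gene linked to demethylation, had 102 with and 434 without.

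Paralogs, which share most of their domains, can be set against each other as a difference of log2 ratios, from which a constant offset between the arrays drops out. Of 18 pairs, 7 were at least 1 log2 unit apart on the authors' scale and 6 after loess, not all of them the same. After loess Ezh1 and Ezh2 and also Smarca1 and Smarca5 were closer than that, while Dnmt3a and Dnmt3b were farther apart. Smarca2 minus Smarca4 was -1.45, and -1.26 after loess. Kat2b minus Kat2a was -1.35, and -1.41 after loess. Kmt2c minus Kmt2d was -1.39, and -1.37 after loess. Ezh1 minus Ezh2 was -1.06, but -0.77 after loess. Smarca1 minus Smarca5 was -1.03, but -0.80 after loess. Dnmt3a minus Dnmt3b was -0.91, and -1.03 after loess. For the first 4 of these pairs and for Smarca1 and Smarca5 every probe set of the first gene that cleared both floors lay under every one of the second. For Dnmt3a and Dnmt3b, Kmt2a minus Kmt2b (-1.30) and Kdm5b minus Kdm5a (-1.0004) the probe sets overlapped. Closest were Arid1b and Arid1a (-0.09) and Kat6a and Kat6b (0.09), whose probe sets did not overlap either. In all, the probe sets of 9 of the 18 pairs did not overlap. Many of these genes had a single probe set above both floors, which leaves little room for overlap. No share over other gene pairs was taken.

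**Figure D5:**
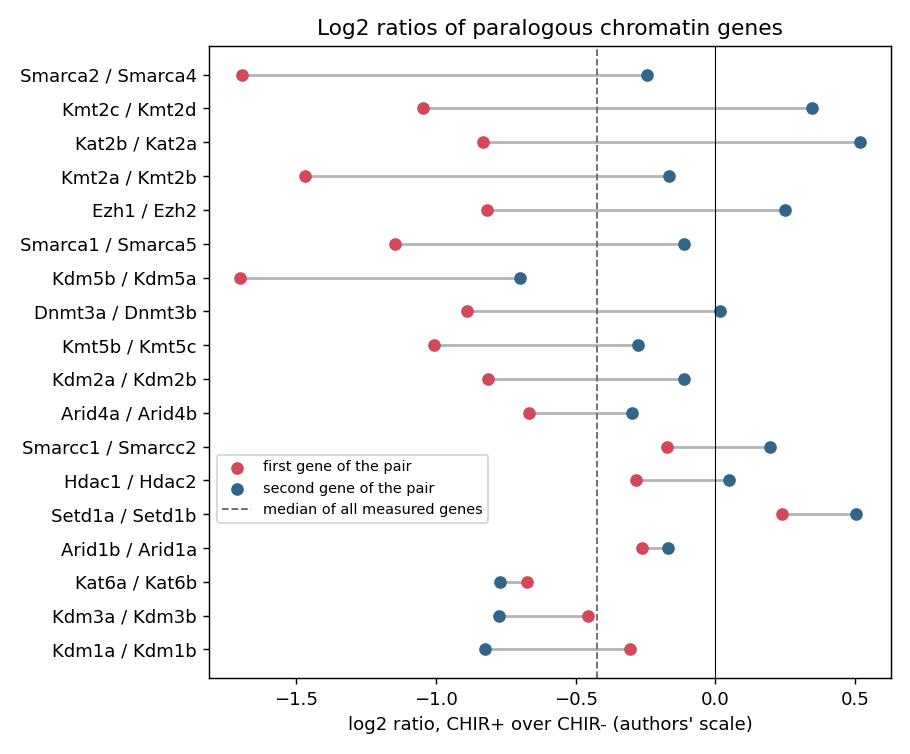
Log2 ratio of CHIR+ over CHIR- on the authors' scale for both genes of 18 paralogous pairs, with the first gene of the pair in red, the second in blue and the median of all measured genes (-0.42) dashed. Pairs run from the most negative difference, Smarca2 minus Smarca4 at -1.45, to the most positive, Kdm1a minus Kdm1b at 0.52.

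Several probe sets of a gene can read different stretches or forms of its RNA. Their spread is the only one these arrays give, and it is not measurement error alone. Of the chromatin genes, 55 had at least 2 probe sets that cleared both floors, and their log2 ratios had a pooled SD of 0.53, against 0.56 over 5335 such genes of the array. In 21 of the 55 genes (38.2%) the probe sets lay on both sides of 0, against 27.1% of all such genes. The dimmest probe set had a lower ratio than the brightest in 29 of the 55 (52.7%), and in 66.3% of all. The median log2 ratio was nevertheless -0.31 for the brightest and -0.82 for the dimmest probe sets of the 55. Over all such genes these medians were -0.36 and -0.64. This SD is between probe sets of a gene and says nothing of the spread between cultures.

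Genes that work with the families were read from lists as well. Of 20 measured corepressor partners of the deacetylases 2 were lower, Sin3a, at 142 with and 329 without CHIR99021, and Mta3, at 165 with and 336 without. Of 29 acetyltransferase genes and partners 2 were lower. Ncoa3, a steroid receptor coactivator, had 41.7 with and 103 without CHIR99021, and Meaf6, a subunit of MYST complexes, had 160.3 with and 328 without. Of 27 other methyltransferases and partners 1 was lower, Prmt2, an arginine methyltransferase, at 253 with and 566 without CHIR99021. Of 10 genes listed as other demethylases and their relatives 4 were lower, Hif1an, Phf8, Hr and Riox2, with log2 ratios between -1.19 and -1.004. Not all genes of that list are demethylases, Hif1an among them, and its Jarid2 is also counted with the Polycomb partners. No gene of these 4 lists was past 2-fold higher, beside a background of 1.9% higher and 18.4% lower. After loess none was past 2-fold lower and 1 was higher, beside 7.29% and 6.03% of all genes. The higher one was Suv39h2, a methyltransferase of lysine 9 of histone H3, with 154.9 with and 110.5 without CHIR99021.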

How the data were processed

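Total RNA of 100 ng per culture was labelled as biotinylated cRNA and hybridised to Affymetrix arrays, per the labels' protocols. The deposited values are linear intensity values, 1 for each probe set, made with MAS5 by the authors per the submitters' processing notes, with version and scaling target not given in the sources used here. They ran from 0.0232 to 13693 on the CHIR+ array and from 0.0201 to 14129 on the CHIR- array, with medians of 20.3 (CHIR+) and 32.9 (CHIR-) over probe sets other than controls. Of 45101 probe sets, 34958 have 1 gene symbol in the platform annotation, 932 have several and 9211 have none, and only the first kind was named. All 255 probe sets of the chromatin genes were matched by Entrez identifier to RefSeq genes of GRCm38.p6, and 0 symbols needed a change.

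Log2 ratios were taken as CHIR+ over CHIR- after flooring. A gene was called past 2-fold as a description, since 1 array per condition limits the precision and allows no test. The procedure was tested on simulated data with a constant shift between the arrays and changes well past 2-fold in bright genes. That test does not bear on genes near 2-fold, on dim probe sets or on a shift that depends on signal. Alternatives were median centring, quantile normalization, loess (span 0.4), scaling on 9 hybridization control probe sets, other floors, an offset of 16, other probe set rules and thresholds of 1.5 and 3. Genes named by rule were the members past 2-fold, the extremes of each family, a fixed set of members and up to 4 genes per list. The remaining members are given so that all are accounted for, and other genes named with values were picked after these were seen. The members, families, lists and paralog pairs were chosen with earlier results of these data known. Python 3.11.15, numpy 2.4.6, pandas 2.3.3, statsmodels 0.14.6 and matplotlib 3.10.9 were used.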

Additional observations from a re-analysis of the deposited data

How the results depend on the processing

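No paired analysis was possible because each condition had 1 array and the labels give no replicate numbers. The 1 gene at least 2-fold higher became 5 after median centring, 5 after quantile normalization, 4 after loess, 2 when scaled on the hybridization controls and 0 with the offset, with 4 at a threshold of 1.5 and 0 at 3. The 17 at least 2-fold lower became 5, 4, 6 and 10 under the same 4 scalings in that order, with 39 at a threshold of 1.5 and 5 at 3. The offset (13), the median over probe sets (14), leaving out shared probe sets (19) and other floors (17) left this count within 1.5 times. No share of all genes is given beside the counts at other thresholds, floors and probe set rules or with the offset. Those counts therefore cannot be read as particular to the chromatin genes. The median log2 ratio of -0.33 changed sign with scaling, to 0.15 after median centring, 0.10 after quantile normalization and 0.03 after loess, as the median of all genes did (0.05, 0.12 and 0.04), and it was -0.16 on the hybridization controls (all genes -0.26). Of 560 log2 ratios of single named genes under alternatives, 533 stayed within the SD between probe sets of the reported value. The other 27 moved further, 15 of them under quantile normalization, and the cause was not tested. Median centring moves every ratio by the same 0.48 log2 units. The hybridization controls, at a median log2 ratio of -0.17, set a smaller constant shift. Both are under that SD of 0.53, so no ratio could count as moved under either. Hdac8, Kdm5b, Kdm7a and Smarca2 were at least 2-fold lower under all 11 alternatives, while Kat2b reached -2.09 and Kdm1a -1.03 under another probe set rule. Dim probe sets limit Tet3, Cbx3, Dnmt3l and Arid5a.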
